A study of Homo sapiens with 6 samples.

Results

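Fatty acid oxidation, ketone body metabolism and their PPAR regulators were followed in Huh-7 cells through 39 genes listed by symbol. Of these, 38 were found by Ensembl gene ID (GENCODE 44) among the 35840 genes of the table, and CYP4A11, a PPAR alpha target, was not analysed here. Huh-7 is a human hepatocellular carcinoma line, and all 6 libraries come from this line. Per the study's methods, the cells were starved and then given 20 mM metformin (metformin replicates 1, 2 and 3) or none (0 mM, control replicates 4, 5 and 6) over 48 h, and RNA was pooled from cells. The dose is given as in the methods and the sample titles, and another part of the study's text names a different one. Metformin is a biguanide given in type 2 diabetes. The labels do not say that the libraries came from separate cultures, so the p-values measure only the spread between these libraries.

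Fatty acids are burned in mitochondria after CPT1, the carnitine carrier SLC25A20 and CPT2 have moved them across the membranes, and each round of beta-oxidation then uses a dehydrogenase, a hydratase, a second dehydrogenase and a thiolase. Very long and branched chains are first shortened in peroxisomes, where acyl-CoA oxidases take the place of the first dehydrogenase. Hepatocytes turn the resulting acetyl-CoA into ketone bodies for export, and the nuclear receptor PPAR alpha with its coactivator PGC-1 alpha is known to switch on many of these genes in the fasting liver.

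Expression was read as FPKM, the fragments per kilobase of a gene's exon model, scaled to the fragments of the library. Rebuilt from the steps of the FPKM values, library totals were 17192221 to 18464783 fragments, and a gene of 1 kb gained 0.0542 to 0.0582 FPKM per fragment. Each control library had 24860 to 25163 genes above 0, and each metformin library 22456 to 23237. The hepatocyte label was checked with 8 markers, and all 8 were at or above 1 FPKM in both groups. Their summed level was 2116 to 2248 FPKM in control and 975 to 1173 FPKM with metformin, with 6 of 8 lower, and its part in the results on the members was not tested. Fibroblast markers summed to 6.28 to 7.21 FPKM in control and 2.78 to 4.68 FPKM with metformin, and 2 of 4 were lower. Endothelial, immune, adipocyte and muscle markers all stayed under 1 FPKM.

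Most of the regulators rose and most of the oxidation enzymes fell. PPARG, PPARA, PPARGC1A and PPARGC1B rose with metformin, and so did CPT1A, which controls the entry of fatty acids into mitochondria. Most enzymes beyond this entry step fell, among them the carnitine carrier SLC25A20, the acyl-CoA dehydrogenase ACAD9, the peroxisomal EHHADH and the electron carrier ETFB. The peroxisomal enzymes had a lower median than the mitochondrial ones. EHHADH and ETFB reached the minimum level for testing only in control, and PPARGC1A and PPARGC1B only with metformin. The trifunctional protein genes HADHA and HADHB, ACADVL, ACAA1 and ACAT1 did not pass the test.

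A gene was tested if its mean reached 1 FPKM in either group, and it was called higher or lower at an adjusted p under 0.05 (limma on log2(FPKM + 1), 3 libraries against 3, adjusted over the 13094 genes tested). Among the 38 members, 32 were tested and 6 stayed under 1 FPKM in both groups. Metformin was associated with 5 higher members (15.6% of the 32, where 28.9% of all genes tested were higher) and 22 lower ones (68.8%, where 44.1% of all genes were lower). By more than 2-fold on the fitted scale, 1 member was higher (4.88% of all genes) and 2 were lower (10.7% of all genes). The lower count depended on the scale, with 7 of 32 members lower beyond 2-fold with a pseudocount of 0.1 (18.5% of all genes) and 11 of 36 on rebuilt fragments (voom, 23.1% of all genes). The values of the groups did not overlap for 28 of the 32 members, which is 87.5%, beside 76.7% of all genes tested. The median log2 fold change was -0.37 over the members and -0.14 over all genes tested. In bulk RNA such as this, fewer cells of a type and less RNA per cell cannot be told apart. All fold changes are on the log2(FPKM + 1) scale, which understates the change of genes near or below 1 FPKM, so the ratio of the mean FPKM is given beside the larger changes and those near 1 FPKM. PPARGC1A and PPARGC1B passed the minimum only through the metformin group, and ETFB, ANGPTL4, BDH2, ECI2 and EHHADH only through the control group. A tested member held between 20 and 3737 fragments in a library.

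The direction of the small changes depended on scaling. Library factors from the median of ratios and from TMM moved the median of all genes up by 0.20 and 0.23 on the log2 scale. Under them 7 and 8 members were higher and 16 and 16 were lower, against 5 and 22 without factors. Of all genes 5291 were then higher and 4357 lower with the median of ratios, and 5595 higher and 4091 lower with TMM, beside 3784 higher and 5781 lower without. Beyond 2-fold, 3 members were higher and 1 was lower with either set of factors, against 1 and 2 without. Of all genes, 1052 were higher and 981 lower beyond 2-fold with the median of ratios, and 1161 and 922 with TMM. CPT1A, PPARG, PPARGC1A and PPARGC1B were higher under all 13 alternatives tried, and 13 of the 22 lower members were lower under all 13. The share of all called genes that kept their call was not computed, so these counts cannot be set beside a background.

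**Figure D1:**
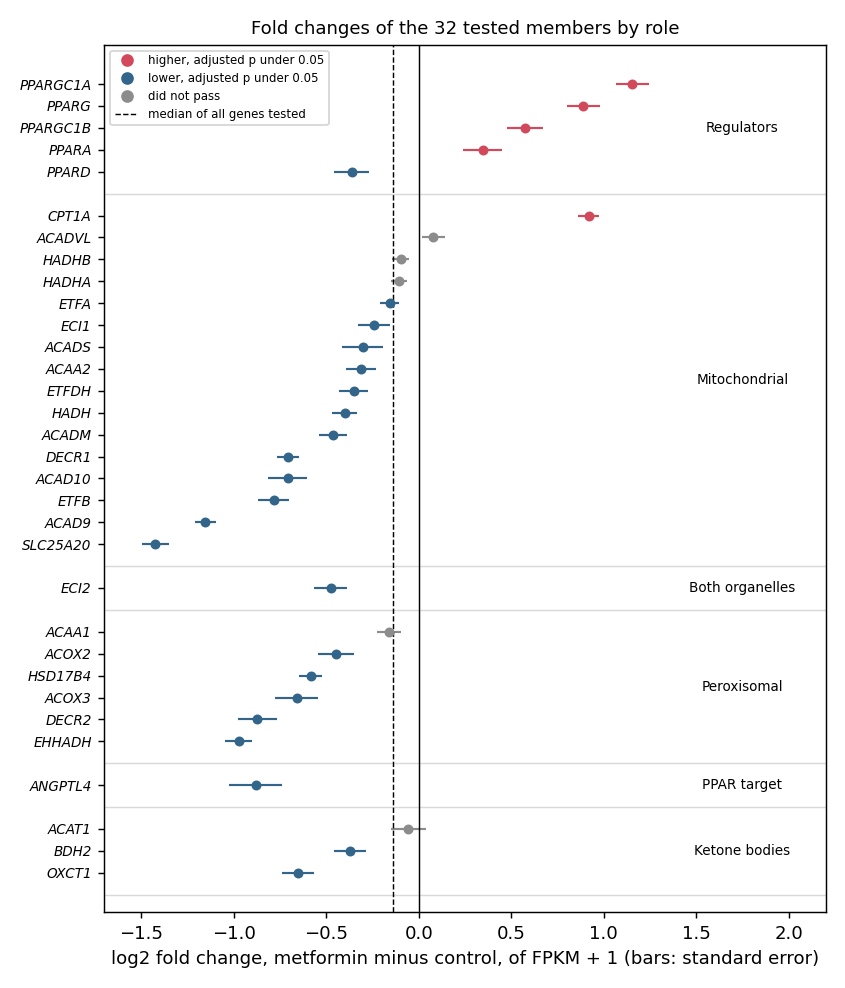
Each point is the log2 fold change (metformin minus control, of FPKM + 1) of 1 of the 32 tested members and each bar its standard error, grouped by role, with the median of all genes tested (-0.14) as a dashed line. PPARGC1A lies farthest to the right at 1.16 and SLC25A20 farthest to the left at -1.42.

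Among the regulators, 4 of 5 rose and 1 fell, with a median log2 fold change of 0.57. PPARGC1A and PPARGC1B passed the minimum level only through the metformin group, where they were high, so this count and median are not free of the filter. Of all genes tested, 28.9% were higher and 44.1% lower. PPARG, the receptor best known from fat cell differentiation, lies at chr3:12287368-12434356 on the + strand (GRCh38) and is among the genes that the study itself singled out from these libraries. It was the most abundant of the PPAR genes per length. Control libraries 4, 5 and 6 held 14.4, 14.5 and 14.2 FPKM, and metformin libraries 1, 2 and 3 held 25.3, 25.7 and 31.7 FPKM. Every metformin library stood well above every control library, and metformin replicate 3 was the highest. The mean rose 1.92-fold, with a log2 fold change of 0.89 (SE 0.09, adjusted p = 7.5e-05).

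PPARA, the main PPAR of the liver and the one tied to fatty acid oxidation, was lower in level than PPARG. Its values were 2.37, 1.90 and 1.82 FPKM in control replicates 4, 5 and 6 and 2.51, 2.74 and 3.29 FPKM in metformin replicates 1, 2 and 3. The groups did not overlap, but the highest control library and the lowest metformin library lay close together. The log2 fold change was 0.35 (SE 0.11, adjusted p = 0.021). This call was lost without control replicate 5 (adjusted p = 0.0677), without control replicate 6 (adjusted p = 0.0697), without metformin replicate 3 (adjusted p = 0.0584) and with no filter on low values (adjusted p = 0.0566).

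PPARD, the receptor found in most tissues, was the only regulator below its control level. It read 5.17, 5.38 and 4.14 FPKM in the controls and 3.604, 3.43 and 3.67 FPKM with metformin, with no overlap. Its log2 fold change was -0.36 (SE 0.09, adjusted p = 0.00888). With median-of-ratios and TMM factors the change was -0.17 and -0.13 and no longer passed (adjusted p = 0.129 and 0.213), and with quantile normalization it was -0.20 (adjusted p = 0.0979).

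PPARGC1A encodes PGC-1 alpha, the coactivator known for mitochondrial biogenesis and the fasting response. Control replicates 4 to 6 held 0.570, 0.583 and 0.771 FPKM and metformin replicates 1 to 3 held 2.48, 2.65 and 2.83 FPKM. In fragments these were 108, 113 and 144 against 467, 531 and 530, so the low group was well above the counting limit. The mean was 4.14-fold higher with metformin and the log2 fold change was 1.16 (SE 0.09, adjusted p = 2.45e-05). On the fitted scale without factors, this was the only rise of a member beyond 2-fold. With median-of-ratios or TMM factors there were 3. PPARGC1B, which encodes the related coactivator PGC-1 beta, went from 0.872, 0.857 and 0.736 FPKM to 1.80, 1.90 and 1.46 FPKM. Its mean was 2.09-fold higher, with a log2 fold change of 0.57 (SE 0.10, adjusted p = 0.00116).

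**Figure D2:**
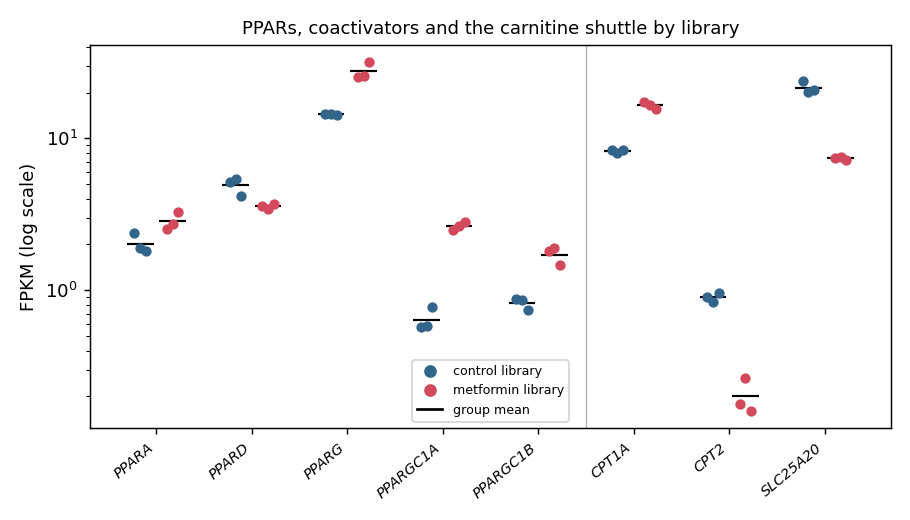
Points are FPKM values of single libraries on a log axis for the PPAR genes and their coactivators (left) and for the carnitine shuttle (right), with a line at each group mean (3 libraries each). PPARGC1A rises from 0.570 to 0.771 FPKM in control to 2.48 to 2.83 FPKM with metformin, while CPT1A and SLC25A20 move in opposite directions.

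The start regions of the members were searched for letters tied to these receptors, in windows from 250 bases before to 50 bases after each RefSeq start site (GRCh38.p14, both strands). Windows were found for 30 members, 47 windows in all. Among the peroxisomal members EHHADH, ACAA1, ACOX2 and DECR2 had no window and were not searched. The same holds for CPT1B, DECR1, ETFDH and ACAD11. The PPAR and RXR element DR1, which is AGGTCA repeated after 1 base, was in none of the 47 and in 0.0228% of 35116 promoters of the same length. The estrogen-related receptor element TCAAGGTCA was also in none of them, against 0.353% of all promoters. The half-site AGGTCA, which both of these contain, was in 4 of the 47 windows, against 13.8% of all promoters. These were 1 window of ACAD10 and 3 of PPARG, so by gene 2 of the 30 members had a match. The PPARG windows from 12288810 and from 12288820 overlap and hold the same half-site. PPARG has 6 windows, and the gene level does not tell which of its start sites was in use. Its first window (chr3:12287118-12287417, + strand) is shown because it alone holds 2 half-sites, in capitals, at -217 to -212 and -184 to -179 from the start.
PPARG: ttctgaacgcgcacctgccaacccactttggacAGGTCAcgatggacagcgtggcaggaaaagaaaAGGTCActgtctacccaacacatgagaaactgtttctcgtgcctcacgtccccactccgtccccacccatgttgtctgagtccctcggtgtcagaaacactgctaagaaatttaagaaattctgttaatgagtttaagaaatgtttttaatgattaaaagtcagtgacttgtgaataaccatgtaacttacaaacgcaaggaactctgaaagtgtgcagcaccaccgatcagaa
A match describes these letters and not a bound site, and a window without one says nothing of the receptor.

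In the carnitine shuttle, which carries long-chain fatty acids into mitochondria, the steps moved apart. CPT1A, the liver form of the outer-membrane transferase (chr11:68754620-68844410, - strand), read 8.41, 8.05 and 8.32 FPKM in control and 17.3, 16.6 and 15.7 FPKM with metformin. The libraries within each group lay close together and the mean was 2.0-fold higher, with a log2 fold change of 0.92 (SE 0.06, adjusted p = 9.83e-06). The study lists CPT1A, CPT1B and PPARG as upregulated by more than 2-fold in these libraries. Their direction here is thus not independent support. Without factors, CPT1A and PPARG rose here by less than 2-fold on the fitted scale. CPT1B stayed under the minimum level here and did not pass on rebuilt fragments.

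SLC25A20, the carnitine-acylcarnitine carrier of the inner membrane (chr3:48856926-48898904, - strand), showed the largest fall of the tested members on the fitted scale. It went from 23.8, 20.03 and 20.7 FPKM in control to 7.43, 7.49 and 7.20 FPKM with metformin. The control mean was 2.92-fold above the metformin mean, and the log2 fold change was -1.42 (SE 0.07, adjusted p = 5.11e-06). By this ratio of means, ANGPTL4 (3.46) and EHHADH (2.95) fell further.

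CPT2, the inner-membrane transferase that hands the fatty acid back to coenzyme A, stayed under the minimum level. Its FPKM was 0.900, 0.831 and 0.957 in control and 0.177, 0.264 and 0.161 with metformin, with no overlap. The fragments were 164, 155 and 172 against 32, 51 and 29, and the rate with metformin was 0.226 of that in control (95% exact interval for counting error only, 0.182 to 0.278). On rebuilt fragments CPT2 was tested and was lower (voom, log2 fold change -2.17, adjusted p = 2.38e-06). The exon model behind its FPKM is 10452 bases long and the canonical transcript 2699, and part of the model (11.4% of its exons) overlaps a gene on the opposite strand.

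CPT1B, the muscle form, and CPT1C, the form of the endoplasmic reticulum in neurons, were low throughout. CPT1B had 30, 20 and 19 fragments in control and 35, 23 and 41 with metformin, which overlap. Its rate ratio was 1.42 (95% exact interval for counting error only, 1.03 to 1.96), and on rebuilt fragments it did not pass (voom, log2 fold change 0.48, adjusted p = 0.192). CPT1B shares 66.4% of its exon bases with the read-through gene CHKB-CPT1B on the same strand, so their fragments may be split between them. CPT1C had 29 fragments in control and 20 with metformin in sum (rate ratio 0.682, interval 0.366 to 1.25), and a difference was not detectable at this depth.

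**Figure D3:**
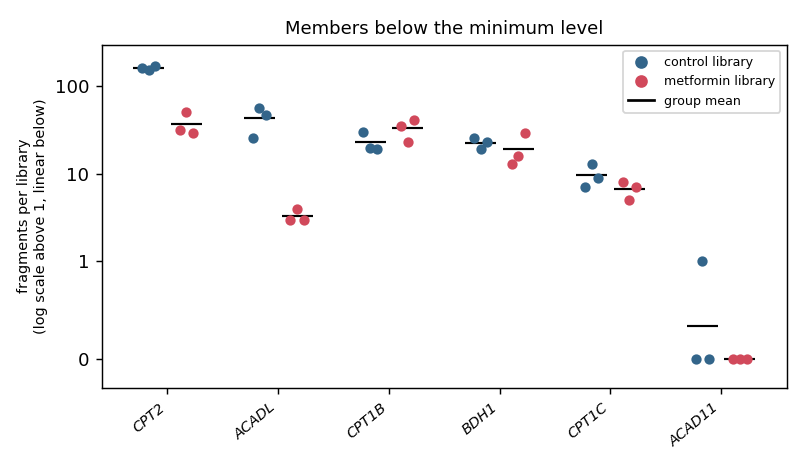
Points are rebuilt fragments per library (log axis above 1, linear below) for the 6 members under 1 FPKM in both groups, with a line at the group mean. CPT2 and ACADL lie lower in every metformin library than in any control library, and the groups of CPT1B, BDH1, CPT1C and ACAD11 overlap.

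Of the 19 mitochondrial members in the table, 16 were tested: CPT1A rose, 12 fell and 3 did not pass, with a median log2 fold change of -0.33. Of all genes tested, 44.1% were lower. With median-of-ratios factors 3 of the 16 were higher and 7 lower, and with TMM factors 4 were higher and 7 lower. The acyl-CoA dehydrogenases, which open each round by chain length, did not move together. ACADVL, for very long chains, read 35.6, 31.9 and 31.3 FPKM in control and 35.9, 34.8 and 33.7 FPKM with metformin. These overlap, and the log2 fold change of 0.08 (SE 0.06, adjusted p = 0.279) did not pass, but with TMM factors it was 0.36 and passed (adjusted p = 0.00138). ACADM, for medium chains, went from 10.7, 10.5 and 12.5 FPKM to 7.43, 8.31 and 7.81 FPKM (log2 fold change -0.46, SE 0.08, adjusted p = 0.0012). ACADS, for short chains, overlapped between the groups, at 4.48 to 6.37 FPKM in control and 4.05 to 4.53 FPKM with metformin. Its call (log2 fold change -0.30, adjusted p = 0.0417) was lost when any library but control replicate 6 was left out (adjusted p = 0.0525 to 0.129), and control replicate 6 was the lowest of its group. The call was also lost with no filter (adjusted p = 0.0996), with quantile normalization (-0.17) and with median-of-ratios and TMM factors, where the change was -0.10 and -0.07 (adjusted p = 0.425 and 0.604).

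ACAD9, which is needed to assemble respiratory complex I and also acts on long chains, had the second largest fall on the fitted scale. The ratios of control to metformin of ANGPTL4, EHHADH and ETFB were larger. Control replicates 4, 5 and 6 held 9.90, 9.85 and 9.54 FPKM and metformin replicates 1, 2 and 3 held 4.01, 3.89 and 3.63 FPKM. The spread within each group was small beside the gap, with means of 9.77 ± 0.193 and 3.84 ± 0.192 FPKM (SD, n = 3). The log2 fold change was -1.15 (SE 0.06, adjusted p = 4.79e-06), and the control mean was 2.54 times the metformin mean. ACAD10, a relative of less settled substrate, went from 3.68, 3.48 and 3.30 FPKM to 2.01, 1.90 and 1.37 FPKM (log2 fold change -0.71, SE 0.10, adjusted p = 0.000593).

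ACADL, the long-chain dehydrogenase that is prominent in mouse tissue, was under 1 FPKM in every library. It had 26, 56 and 47 fragments in control and 3, 4 and 3 with metformin. Every metformin library was at or just above the 3 fragments taken as the floor, and the rate ratio was 0.0767 (95% exact interval for counting error only, 0.0359 to 0.146). On rebuilt fragments it was lower (voom, log2 fold change -3.46, adjusted p = 7.72e-05).

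TGACGTCA, the cAMP response element, was searched as well and was in 3 of the 47 member windows, 1 of ACAD9 and 2 of ACOX3, against 1.85% of all promoters. The window of SLC25A20, which fell most on the fitted scale, held no match. A tie between the match and the change of a gene was not tested. For each of the 2 members with a match, 1 window is printed with the match in capitals. In ACAD9 (chr3:128879370-128879669, + strand) it lies at -158 to -151 from the start, and in ACOX3 (chr4:8440674-8440973, - strand) at -31 to -24.
ACAD9: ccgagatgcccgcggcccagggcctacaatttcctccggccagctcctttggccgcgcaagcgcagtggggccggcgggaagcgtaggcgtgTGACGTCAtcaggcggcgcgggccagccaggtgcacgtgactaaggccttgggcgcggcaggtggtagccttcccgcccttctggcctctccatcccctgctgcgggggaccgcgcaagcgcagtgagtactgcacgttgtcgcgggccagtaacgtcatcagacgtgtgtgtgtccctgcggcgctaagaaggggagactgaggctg
ACOX3: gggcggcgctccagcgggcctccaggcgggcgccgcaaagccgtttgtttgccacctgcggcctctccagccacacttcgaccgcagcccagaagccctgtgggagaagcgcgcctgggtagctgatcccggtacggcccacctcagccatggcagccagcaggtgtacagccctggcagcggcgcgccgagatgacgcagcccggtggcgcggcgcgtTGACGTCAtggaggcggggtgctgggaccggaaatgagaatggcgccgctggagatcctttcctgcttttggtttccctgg

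HADHA and HADHB encode the alpha and beta chains of the trifunctional protein, which carries out the last steps on long chains. HADHA was the most abundant member per length, at 52.8, 53.2 and 53.0 FPKM in control and 49.4, 47.6 and 50.4 FPKM with metformin. HADHB read 26.4, 27.1 and 27.4 FPKM in control and 25.7, 24.9 and 24.9 FPKM with metformin. Both lay slightly lower in each metformin library than in any control library, by nearly the same amount. The log2 fold changes were -0.11 (SE 0.04, adjusted p = 0.0573) for HADHA and -0.10 (SE 0.05, adjusted p = 0.088) for HADHB. Neither passed, and both turned upward with median-of-ratios factors (0.13, adjusted p = 0.0509, and 0.13, adjusted p = 0.0418) and with TMM factors (0.17, adjusted p = 0.0132, and 0.18, adjusted p = 0.0108). Only the calls of HADHA went in opposite directions with the processing. It was called lower with quantile normalization (-0.12, adjusted p = 0.0382) and without metformin replicate 3 (log2 fold change -0.13, adjusted p = 0.0478). HADHB was called lower in no setting.

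These neighbours start head to head on chromosome 2, HADHA on the - strand from 26244632 and HADHB on the + strand from 26244939, which is 307 bases apart. Their windows therefore overlap by 194 bases. A part of this overlap in the changes of the pair, neither of which passed, was not tested. The HADHB window (chr2:26244689-26244988, + strand, 68% G and C) is printed with the shared bases in capitals.
HADHB: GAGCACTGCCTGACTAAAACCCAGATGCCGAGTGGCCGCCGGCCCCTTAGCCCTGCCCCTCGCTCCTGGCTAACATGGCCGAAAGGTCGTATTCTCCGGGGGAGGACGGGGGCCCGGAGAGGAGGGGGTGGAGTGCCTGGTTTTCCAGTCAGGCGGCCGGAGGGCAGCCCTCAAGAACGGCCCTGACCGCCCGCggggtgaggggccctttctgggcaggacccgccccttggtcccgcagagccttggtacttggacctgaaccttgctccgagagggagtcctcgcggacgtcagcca
None of the motifs searched was in it.

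For the later steps, HADH, the dehydrogenase of medium and short chains, went from 3.90, 3.91 and 3.76 FPKM to 2.69, 2.88 and 2.48 FPKM (log2 fold change -0.40, SE 0.07, adjusted p = 0.00127). ACAA2, the mitochondrial thiolase, fell by 0.31 on the log2 scale (adjusted p = 0.0109), from 11.3 to 12.7 FPKM in control to 8.26 to 9.87 FPKM with metformin. That call did not hold with median-of-ratios or TMM factors (log2 fold change -0.09 and -0.05).

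Unsaturated fatty acids need auxiliary enzymes. DECR1, the mitochondrial dienoyl-CoA reductase, read 13.3, 12.8 and 14.1 FPKM in control and 7.45, 8.01 and 8.07 FPKM with metformin. All 3 metformin values lay far below the controls, with a log2 fold change of -0.71 (SE 0.06, adjusted p = 4.25e-05). ECI1, the mitochondrial enoyl-CoA isomerase, overlapped between the groups (11.9 to 13.8 FPKM in control, 9.93 to 12.1 FPKM with metformin). Its log2 fold change of -0.24 (adjusted p = 0.0377) was not called without control replicate 4 or 5 or without metformin replicate 2 or 3 (adjusted p = 0.0847 to 0.123), and it was 0.02 with TMM factors.

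The electron transfer flavoproteins, which pass the electrons of the first step to the respiratory chain, fell unequally. ETFB, the beta chain, went from 1.71, 1.80 and 1.81 FPKM to 0.567, 0.573 and 0.693 FPKM, or from 194, 210 and 203 fragments to 64, 69 and 78. The control mean was 2.90 times the metformin mean, and the log2 fold change was -0.78 (SE 0.08, adjusted p = 0.000113). Its exon model is 7.48 times as long as the canonical transcript (6526 against 872 bases), which lowers its FPKM. ETFA, the alpha chain of the same dimer, read 32.5, 32.5 and 32.2 FPKM in control and 27.8, 30.6 and 28.5 FPKM with metformin. The log2 fold change of ETFA was -0.16 (adjusted p = 0.0262), was not called without control replicate 4 or 5 or without metformin replicate 1 or 3 (adjusted p = 0.0581 to 0.0799), and was 0.08 and 0.12 with median-of-ratios and TMM factors. ETFDH, which takes the electrons on to ubiquinone, went from 5.06, 4.59 and 4.88 FPKM to 3.19, 3.66 and 3.91 FPKM (log2 fold change -0.35, SE 0.08, adjusted p = 0.00483), and was -0.16 and -0.12 with those factors and no longer called.

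In peroxisomes, 5 of the 6 members fell, beside 44.1% of all genes tested, and 1 did not pass. The median log2 fold change of the 6 was -0.62. EHHADH, the bifunctional enzyme known as a classic PPAR alpha target, had the largest fall of these. It read 2.76, 2.86 and 3.02 FPKM in control and 1.01, 0.968 and 0.95 FPKM with metformin. The control mean was 2.95 times the metformin mean, with little spread on either side, and the log2 fold change was -0.97 (SE 0.07, adjusted p = 2.14e-05). HSD17B4, the other bifunctional enzyme, which handles branched chains and bile acid precursors, was the most abundant peroxisomal member. It went from 26.0, 23.8 and 24.9 FPKM to 15.2, 16.7 and 17 FPKM (log2 fold change -0.58, SE 0.06, adjusted p = 0.000119).

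The acyl-CoA oxidases of branched chains fell too. ACOX3 read 5.61, 6.12 and 6.06 FPKM in control and 4.12, 3.44 and 2.71 FPKM with metformin (log2 fold change -0.66, SE 0.12, adjusted p = 0.00146). ACOX2, which also shortens bile acid precursors, was low, at 1.61, 2.08 and 1.64 FPKM against 1.03, 1.11 and 0.947 FPKM (ratio of control to metformin 1.72, log2 fold change -0.45, SE 0.10, adjusted p = 0.00399). With quantile normalization ACOX2 was at -0.13 and did not pass (adjusted p = 0.238).

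DECR2, the peroxisomal dienoyl-CoA reductase, went from 6.65, 6.60 and 5.79 FPKM to 3.13, 3.48 and 2.48 FPKM (ratio of control to metformin 2.095, log2 fold change -0.87, SE 0.10, adjusted p = 0.000208), and 14.3% of its exon bases are shared with NME4 on the same strand. ACAA1, the peroxisomal thiolase, was the member that did not pass. It read 17.3, 16.3 and 16.1 FPKM in control and 15.7, 13.6 and 14.9 FPKM with metformin, with a log2 fold change of -0.16 (SE 0.06, adjusted p = 0.0559). It was 0.07 and 0.11 with median-of-ratios and TMM factors, and it passed without metformin replicate 1 (log2 fold change -0.20, adjusted p = 0.0346) and on rebuilt fragments (-0.17, adjusted p = 0.0427).

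A pair of members is known from both organelles and was counted apart. ECI2, an enoyl-CoA isomerase, went from 1.15, 1.11 and 1.26 FPKM to 0.631, 0.556 and 0.507 FPKM (ratio of control to metformin 2.08, log2 fold change -0.48, SE 0.09, adjusted p = 0.00207). With quantile normalization its change was -0.04 and did not pass (adjusted p = 0.692). ACAD11, an acyl-CoA dehydrogenase, had 1 fragment in control replicate 5 and 0 in each other library, which allows up to 3 fragments there.

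The difference between the organelles was read within each library. The mean log2(FPKM + 1) of the 16 tested mitochondrial members lay above that of the 6 peroxisomal ones by 0.67, 0.60 and 0.63 in control replicates 4, 5 and 6. With metformin this gap was 0.83, 0.85 and 0.91 in replicates 1, 2 and 3. It was wider in every metformin library than in any control library, by 0.23 on average (0.25 with median-of-ratios factors and 0.25 with TMM factors). CPT1B, CPT2 and ACADL, under the minimum level, are not among the 16, although CPT2 and ACADL were lower on rebuilt fragments. CPT1A, the only mitochondrial member called higher without factors, carried part of this. Without it, a choice made after seeing the data, the gap was 0.69, 0.63 and 0.66 in control and 0.77, 0.79 and 0.85 with metformin, and it widened by 0.14. Without a pseudocount, the summed FPKM of the mitochondrial members was 4.35 to 4.40 times the peroxisomal sum in control and 5.43 to 5.48 times with metformin. The mitochondrial sum went from 252 to 261 FPKM down to 212 to 218 FPKM, and the peroxisomal sum from 57.6 to 59.9 FPKM down to 39.0 to 40.1 FPKM. These are descriptions of listed genes with no test, and a few abundant genes such as HADHA and HSD17B4 carry much of each sum. Relative to the median of all genes tested, the median of the mitochondrial members was lower by 0.19 without factors, with median-of-ratios factors and with TMM factors, and that of the peroxisomal members was lower by 0.48, 0.47 and 0.47.

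**Figure D4:**
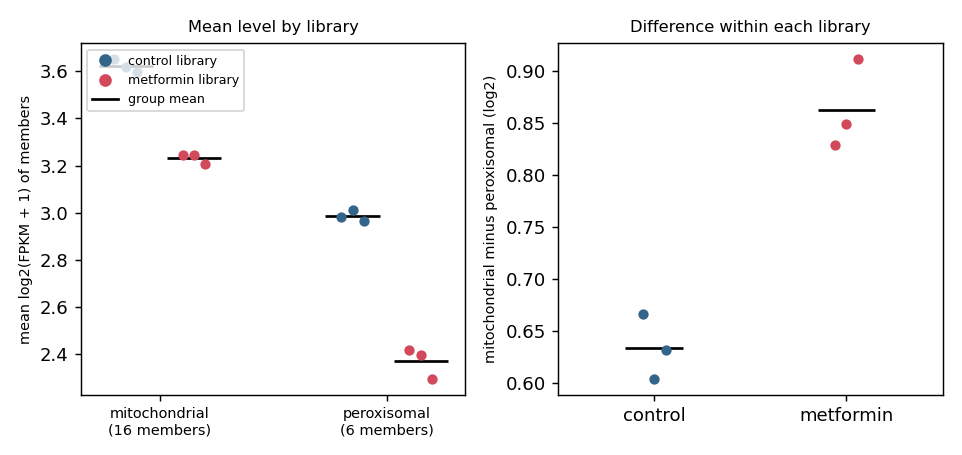
Left, each point is the mean log2(FPKM + 1) of the 16 mitochondrial or 6 peroxisomal members in 1 library, with a line at the group mean. Right, the gap between the organelles in each library is 0.60 to 0.67 in control and 0.83 to 0.91 with metformin.

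Among targets of the PPARs, ANGPTL4, a secreted inhibitor of lipoprotein lipase that all PPARs can induce, fell. Control replicates 4, 5 and 6 held 1.36, 2.44 and 1.80 FPKM and metformin replicates 1, 2 and 3 held 0.466, 0.524 and 0.631 FPKM. The controls were spread, with replicate 5 on top, yet none came near the metformin values. The control mean was 3.46 times the metformin mean, with a log2 fold change of -0.88 (SE 0.14, adjusted p = 0.000999).

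In ketone body metabolism, OXCT1, the transferase that peripheral tissues use to burn ketone bodies and that hepatocytes normally keep low, fell from 2.05, 2.11 and 2.47 FPKM to 1.12, 0.968 and 1.04 FPKM (ratio of control to metformin 2.12, log2 fold change -0.65, SE 0.09, adjusted p = 0.000333). BDH2, a cytosolic hydroxybutyrate dehydrogenase, went from 1.17, 1.21 and 1.36 FPKM to 0.717, 0.768 and 0.720 FPKM (ratio of control to metformin 1.69, log2 fold change -0.37, SE 0.09, adjusted p = 0.00556), but it stood at 0.01 with quantile normalization. ACAT1, the mitochondrial acetoacetyl-CoA thiolase, overlapped between the groups, at 10.4, 11.1 and 11.2 FPKM and 11.6, 11.0 and 8.92 FPKM. Its log2 fold change was -0.06 (SE 0.09, adjusted p = 0.605), and it was 0.16 and 0.20 with median-of-ratios and TMM factors and 0.05 without metformin replicate 3. BDH1, the mitochondrial hydroxybutyrate dehydrogenase that ends ketogenesis, had 26, 19 and 23 fragments in control and 13, 16 and 29 with metformin. Its rate ratio was 0.844 (95% exact interval for counting error only, 0.584 to 1.22), so a difference was not detectable at this depth.

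A further 41 genes of the pathway were listed, 40 were in the table and 30 were tested. The test called 4 of them higher and 15 lower and left 11 uncalled, at a median log2 fold change of -0.22. Of all genes tested, 28.9% were higher and 44.1% lower, so the lower count was near the background. The counts rested on scaling, since 13 were higher and 11 lower with median-of-ratios factors and 14 higher and 10 lower with TMM factors. By role, 5 of 9 further peroxisomal genes and 3 of 5 further mitochondrial and carnitine genes were lower and none was higher, although 4 of the 9 and 2 of the 5 were higher with either set of factors. Of the 13094 genes tested, median-of-ratios factors left 5291 higher and 4357 lower, and TMM factors 5595 and 4091. The 5 lower peroxisomal calls stood at 5 with both sets. The 3 lower mitochondrial and carnitine calls came down to 1 with median-of-ratios factors and to 0 with TMM factors. Of 8 partners and corepressors of the PPARs, 3 were higher and 2 lower, and 6 were higher and 1 lower with either set of factors. The 3 higher ones without factors, named after their values were seen, were RXRA, the obligate partner of the PPARs, ESRRA, the estrogen-related receptor that works with PGC-1 alpha, and NRIP1, a corepressor. ESRRA went from 10.3 to 20.8 FPKM in the mean (log2 fold change 0.94, SE 0.06, adjusted p = 1.19e-05). The 2 lower ones without factors were LPIN1 (log2 fold change -0.38, adjusted p = 0.000574) and HELZ2 (-0.26, adjusted p = 0.0309).

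Large changes of that list were in targets of the PPARs. Of 6 targets tested there, 1 was higher and 3 lower, beside 28.9% and 44.1% of all genes. On rebuilt fragments 3 of 9 were higher and 3 lower, beside 4103 and 7228 of 15675 genes. PDK4 and VNN1, under 1 FPKM in the mean of both groups, were higher in each metformin library than in any control library. CREB3L3, a liver transcription factor of the fasting response, read 23.2, 17.8 and 17.2 FPKM in control and 64.2, 65.6 and 80.7 FPKM with metformin (log2 fold change 1.81, SE 0.13, adjusted p = 1.87e-05). The study also lists CREB3L3 as upregulated in these libraries, so its direction is not independent support. FABP1, the fatty acid binding protein of the liver, fell from 17.8, 19.0 and 15.9 FPKM to 5.54, 5.94 and 6.22 FPKM (log2 fold change -1.43, SE 0.08, adjusted p = 6.19e-06). UCP2, a mitochondrial carrier, fell from 13.1, 12.9 and 12.6 FPKM to 2.93, 3.56 and 3.67 FPKM (log2 fold change -1.66, SE 0.08, adjusted p = 3.85e-06). None of these 3 overlapped between the groups, and CREB3L3 alone of them was higher in every metformin library.

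**Figure D5:**
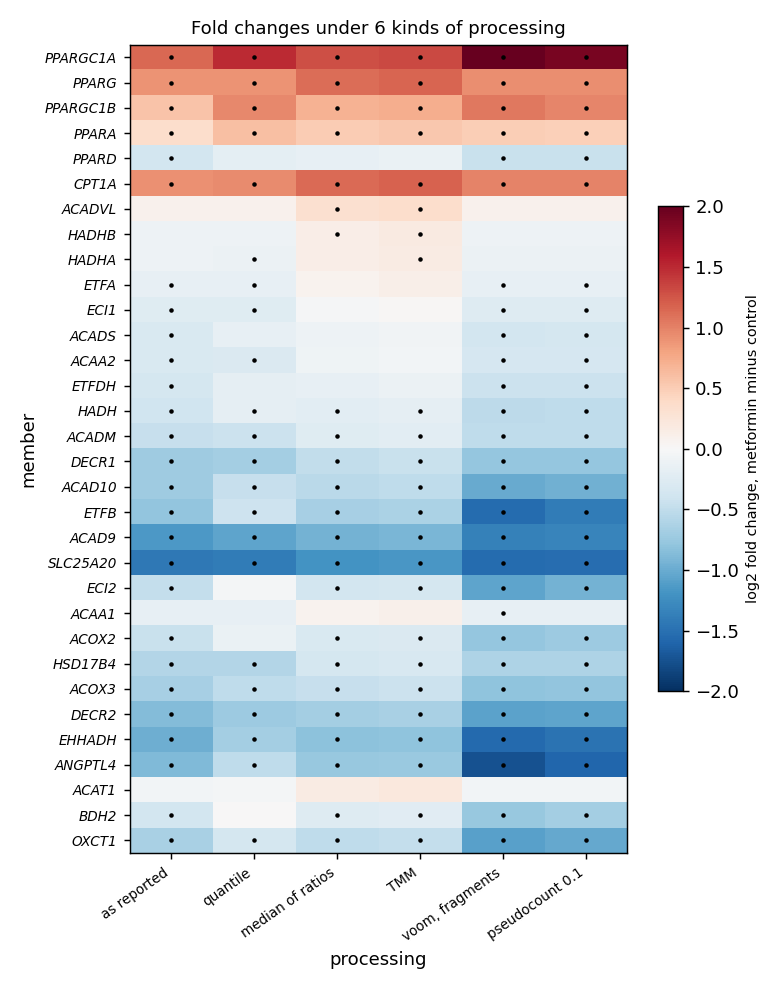
Colours give the log2 fold change (metformin minus control) of each of the 32 tested members under 6 kinds of processing, and a dot marks an adjusted p under 0.05. PPARGC1A, PPARG, PPARGC1B and CPT1A stay red and dotted in all columns, SLC25A20 and ACAD9 stay blue and dotted, and HADHA, HADHB, ETFA, ACAA1 and ACAT1 turn from pale blue to pale red with the factors.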

How the data were processed

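Polyadenylated RNA of Huh-7 cells was sequenced by the authors in 6 libraries, 3 per group. The study's methods name GRCh38 as the genome of the filtered reads, and the submitters' processing notes name Cufflinks 2.1.1. The aligner and the strand setting are not given in the sources used here, so genes overlapping on opposite strands cannot be told apart. The authors deposited FPKM values for 35840 genes, which are already scaled to each library's total and to exon model length. Groups were taken from the titles.

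The main comparison used limma 3.58.1 in R 4.3.3 with eBayes(trend = TRUE) on log2(FPKM + 1), for the 13094 genes whose mean in the control or the metformin group reached 1 FPKM, two-sided, with Benjamini-Hochberg adjustment. The study compared reads with Cufflinks, which FPKM values do not allow. Its thresholds (0.05, and an absolute log2 fold change above 1 for more than 2-fold) were kept. FPKM steps gave back whole fragments in 31776 of 31777 genes above 0 (tolerance 1e-06), and exact 95% intervals of rate ratios, conditional on the summed fragments, cover counting error only, as reads without molecular identifiers are not independent molecules. Alternatives were a pseudocount of 0.1, no filter, quantile normalization, median-of-ratios factors, TMM factors, voom on these fragments (15675 genes with 10 or more in 3 or more libraries) and leaving out each library. A pseudocount of 0.1 together with median-of-ratios factors was chosen after seeing the data, as was leaving CPT1A out of the mitochondrial members. Tables were made in Python 3.11.15 (pandas 2.3.3, numpy 2.4.6), and the fit was tested on simulated data. Of the gene IDs, 35450 are in GENCODE 44 (GRCh38). Promoter windows are from RefSeq (GRCh38.p14). A planned protein comparison of the PPARs and CPT1 enzymes was not made here.

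The members and the lists were chosen with earlier results of these data known. Every member is named, and of the other genes of the pathway the 4 with the largest absolute log2 fold change among those called and without overlap. 1 of these 4 is not reported here. Other genes named were chosen after their values were seen.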

Additional observations from a re-analysis of the deposited data

How the results depend on the processing

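No paired analysis was possible because the groups share no replicate numbers (4 to 6 against 1 to 3). Of the 27 calls, 4 higher and 13 lower ones held under all 13 alternatives, and the share of all called genes that did so was not computed. The number of higher members was 8 with TMM factors and 8 with a pseudocount of 0.1 plus median-of-ratios factors. The number of higher genes among the rest of the pathway was 13 with median-of-ratios factors, 14 with TMM factors and 13 with the combined setting. The mitochondrial median was -0.39 with a pseudocount of 0.1, -0.21 with quantile normalization, -0.13 with median-of-ratios factors, -0.0939 with TMM factors, -0.44 on rebuilt fragments and -0.16 with the combined setting, and -0.37 to -0.33 when 1 library was left out. In the same order the peroxisomal median was -0.76, -0.55, -0.41, -0.37, -0.79 and -0.53. The widening of the gap between the organelles was 0.32 with a pseudocount of 0.1 and 0.16 with quantile normalization. It was 0.33 with the combined setting and 0.14 with CPT1A left out. On rebuilt fragments the widening was 0.15, but there it and the mitochondrial median cover 19 mitochondrial members instead of 16. The added members were CPT2, ACADL and CPT1B, at log2 fold changes of -2.17, -3.46 and 0.48, so this value is not like for like.

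Direction reversed for 7 members. With median-of-ratios factors, TMM factors and the combined setting, the log2 fold change was 0.13, 0.17 and 0.13 for HADHA, 0.13, 0.18 and 0.14 for HADHB, 0.0764, 0.12 and 0.0786 for ETFA, 0.0657, 0.11 and 0.0693 for ACAA1, and 0.16, 0.20 and 0.18 for ACAT1. Leaving out 1 library gave -0.12 to 0.0477 for ACAT1, the highest without metformin replicate 3. ECI1 was at 0.0224 with TMM factors and BDH2 at 0.0146 with quantile normalization. The cause was not tested. Over single members, 38 further values lost a call and 7 gained one without a turn in direction. Of all genes, 3912 were higher and 7698 lower with no filter, and 4103 and 7228 of 15675 on rebuilt fragments. Leaving out 1 library gave 3451 to 3748 higher and 5324 to 5583 lower.

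Depth limits CPT1B, CPT1C, BDH1 and ACAD11 most, which held at most 99 fragments over a group. The scaling between libraries limits changes near the median of all genes, since no spike-in or other outside standard was used here to set it.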
